A study of Homo sapiens with 3 samples.

Results

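The p53 pathway was examined as 32 genes, most of them direct transcriptional targets of p53, in HEK293T cells that stably carried a TRAF7 construct or an empty vector. The list was set by gene name and uses no measured value as a rule, although it was drawn up with earlier results of these data known. Of the 32 genes, 29 had a probe set annotated to that gene alone, out of 22395 such genes on the array, and each of the 29 had 1 such probe set. BTG2 and FDXR were not analysed here, and TNFRSF10C was left out because its probe set is annotated to a second gene as well. The study stably transduced HEK293T cells with lentivirus, selected them in puromycin, and hybridised RNA of growing cells to Affymetrix arrays. The 3 groups were cells with pCDF1-TRAF7 wildtype, cells with pCDF1-TRAF7 G536S mutant and cells with pCDF1 empty vector. All 3 groups share the HEK293T background, the vector and the puromycin selection. Each group is 1 array of 1 culture, so no p-value, standard error or significance call can be had. What separates 2 arrays includes their cultures, extractions and hybridisations, which cannot be told apart from the constructs.

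The transcription factor p53 is held at a low level by the ubiquitin ligase MDM2 and its partner MDM4, and DNA damage or other stress releases it. It then activates genes that halt the cell cycle, repair DNA or start apoptosis, and several of its targets, MDM2 and PPM1D among them, feed back to switch it off. HEK293T is an established human embryonic kidney line in which the SV40 large T antigen binds p53 and blocks its activity as a transcription factor, so p53 targets are read here in cells where p53 itself is constrained. TRAF7 is a ubiquitin ligase whose WD40 repeats carry the G536S change in the mutant.

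The values are log2 intensities after the authors' normalization with RMA (robust multi-array average), so a difference of 1 is a 2-fold difference. The arrays had medians of 1.01 to 1.04 over 53617 probe sets, and pairs of arrays correlated at 0.982 to 0.989 across probe sets. The 75th percentiles were 1.85 with wild-type TRAF7 and 1.86 with TRAF7 G536S, against 1.73 with empty vector. Above the median the arrays were thus not level, and differences from the empty vector carry this offset. TRAF7 itself read 8.11 in wild-type TRAF7 cells and 7.35 in TRAF7 G536S cells, against 5.66 in empty vector cells, which separates both constructs from the empty vector but does not check which construct array is which. Of 8 genes listed as HEK293T markers, 6 passed the filter on low values, VIM, NEFL and CDH2 among them, whereas NEFM and KRT8 did not. Of 10 measured markers of other cell types, 9 stayed below it, with values from 0.67 to 1.12, and COL1A1 was the exception at 2.47 to 2.60. The filter kept genes whose mean over the 3 arrays was at or above the median of all gene means, 1.21, which left 11198 genes. It uses the mean of all arrays, and 25 of the 29 measured p53 pathway genes passed it. FAS, BBC3, PLK3 and PLK2 fell below it. Their values are given for completeness but lie near background, where differences are compressed.

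Promoters are shown first, so that the letters stand beside the values. RefSeq promoter windows of build GRCh38.p14, which run from 250 bases before to 50 bases after each transcript start, matched 27 of the 32 genes, and GADD45A was not among them. Each window was searched for the p53 half-site consensus, the AP-1 site TGANTCA and the cAMP response element TGACGTCA. Each of these motifs reads the same on both strands. MDM4, PMAIP1 and EDA2R are 3 of the 4 genes that differed by at least 1.5-fold in a comparison, and PPM1D, a phosphatase gene with a cAMP response element, is shown for contrast. The 250 bases before the start were, 5′ to 3′, with motif matches in capitals:

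MDM4 (chr1:204516156-204516405, plus strand): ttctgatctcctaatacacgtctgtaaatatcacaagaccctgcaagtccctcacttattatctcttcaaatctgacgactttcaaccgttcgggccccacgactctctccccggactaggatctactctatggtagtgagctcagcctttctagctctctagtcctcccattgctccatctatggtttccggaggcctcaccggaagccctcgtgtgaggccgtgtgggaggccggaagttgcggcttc
PMAIP1 (chr18:59899746-59899995, plus strand): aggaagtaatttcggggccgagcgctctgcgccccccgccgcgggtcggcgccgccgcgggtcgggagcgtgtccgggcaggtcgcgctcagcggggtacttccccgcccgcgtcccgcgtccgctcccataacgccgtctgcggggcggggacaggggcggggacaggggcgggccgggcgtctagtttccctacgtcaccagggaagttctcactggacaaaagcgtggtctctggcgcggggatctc
EDA2R (chrX:66639270-66639519, minus strand): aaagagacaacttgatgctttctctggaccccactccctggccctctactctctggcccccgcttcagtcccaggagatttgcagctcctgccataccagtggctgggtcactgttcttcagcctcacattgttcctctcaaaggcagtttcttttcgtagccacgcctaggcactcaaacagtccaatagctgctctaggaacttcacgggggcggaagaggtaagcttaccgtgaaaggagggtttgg
PPM1D (chr17:60599943-60600192, plus strand): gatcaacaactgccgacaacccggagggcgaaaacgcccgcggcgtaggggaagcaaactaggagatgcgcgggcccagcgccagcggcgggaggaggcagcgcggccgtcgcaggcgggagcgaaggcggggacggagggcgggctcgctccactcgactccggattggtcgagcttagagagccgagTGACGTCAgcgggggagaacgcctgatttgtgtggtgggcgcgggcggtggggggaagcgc

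The upstream sequences shown for MDM4, PMAIP1 and EDA2R, each before the first listed start, held no match to the 3 motifs. G and C made up 52.8% of the MDM4 stretch, 72.8% of PMAIP1, 54.0% of EDA2R and 70.4% of PPM1D. The matches that other members carried in their windows are shown with their flanking bases, again with the match in capitals. DDB2, PLK2, FAS, AEN and FDXR carried a p53 half-site, and DDB2 carried 2 of them separated by 1 base, just after its start:

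DDB2 (chr11:47214979-47214999, plus strand): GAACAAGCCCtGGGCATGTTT
AEN (chr15:88621296-88621325, plus strand): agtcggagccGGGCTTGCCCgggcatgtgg
FDXR (chr17:74872986-74873015, minus strand): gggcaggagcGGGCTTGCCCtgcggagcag
FAS (chr10:88991299-88991328, plus strand): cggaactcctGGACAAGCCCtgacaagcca
PLK2 (chr5:58460199-58460228, minus strand): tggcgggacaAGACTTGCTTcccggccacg

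The AP-1 site was matched in the windows of MDM2, PERP, EDA2R, BBC3 and FAS. The match of EDA2R began at base 29 after the first listed start and 163 bases before another listed start:

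MDM2 (chr12:68808889-68808915, plus strand): gtgggcaggtTGACTCAgcttttcctc
PERP (chr6:138107504-138107530, minus strand): gggcgcgctcTGAGTCAccggaatcta
EDA2R (chrX:66639225-66639251, minus strand): ggatgtgaaaTGAGTCAagcggaactt
BBC3 (chr19:47232764-47232790, minus strand): cactggaaggTGAGTCActctggtgag
FAS (chr10:88990548-88990572, plus strand): caagttgcTGAATCAatggagccct

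Over all genes with a window, 8.06% had a p53 half-site, 9.37% an AP-1 site and 2.25% a cAMP response element. Among the 27 matched p53 pathway genes these counts were 5 (18.5%), 5 (18.5%) and 1 (3.70%). A gene counted if any of its windows matched. The 27 genes had 39 windows, and all 27305 genes had 35116. Median G and C content was 64.7% in the windows of the 27 genes and 58.7% in all windows. The shares are thus not like for like, and their difference was not tested. A match describes letters in a short window and not a bound site, and many known p53 elements lie outside such windows.

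The p53 pathway as a whole stood close to all genes in every comparison. In RNA of a whole culture, a difference in every cell and one in a share of the cells cannot be told apart. With wild-type TRAF7 against the empty vector, 2 of the 25 genes passing the filter were at least 1.5-fold higher, MDM4 and PMAIP1, where 5.42% of all genes passing were. None was at least 1.5-fold lower, where 1.79% of all genes were. With TRAF7 G536S against the empty vector, 1 of the 25 was at least 1.5-fold higher, MDM4, where 6.07% of all genes were, and none was lower, where 2.08% of all genes were. With TRAF7 G536S against wild-type TRAF7, EDA2R was the 1 gene higher, against a background of 2.17%, and GADD45A the 1 gene lower, against a background of 1.81%. With so few genes, counts of 0 to 2 of 25 are near what those backgrounds give. No p53 pathway gene was 2-fold apart in any comparison. Over all genes the shares at least 2-fold higher and lower were 0.795% and 0.161% with wild-type TRAF7, 0.929% and 0.268% with TRAF7 G536S, and 0.268% each way between the constructs.

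The median difference of the 25 genes was 0.02 for wild-type TRAF7 minus empty vector, where all genes passing had a median of 0.08. It was 0.02 for TRAF7 G536S minus empty vector, where all genes had 0.10, and -0.0033 for TRAF7 G536S minus wild-type TRAF7, where all genes had 0.0069. The p53 pathway genes thus differed from the median gene by -0.06, -0.07 and -0.01. Against the empty vector these became -0.02 and -0.05 after quantile normalization, which lowered the median of all genes but did not move every gene equally. A filter raised to the 75th percentile of gene means (2.87) turned these distances from the median gene to 0.07 and 0.01. Of the 25 genes, 14 were above 0 with wild-type TRAF7, 15 with TRAF7 G536S and 12 between the constructs, which is 56%, 60% and 48%, against 62.6%, 63.9% and 51.4% of all genes. Both constructs are set against the same empty vector array, so their values against it are given side by side and not compared with each other.

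**Figure D1:**
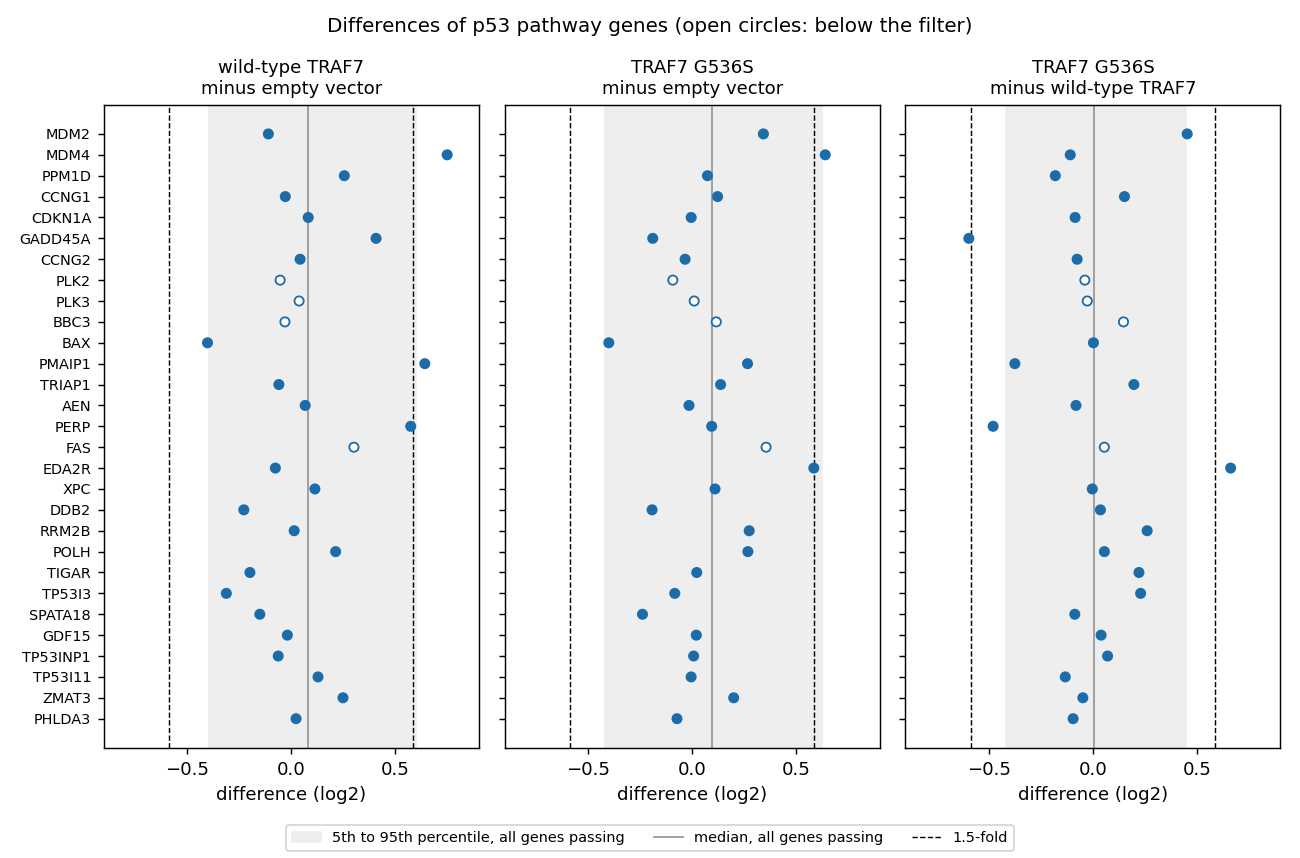
Log2 differences of the 29 measured p53 pathway genes in the 3 comparisons, 1 point per gene, with open circles for the 4 genes below the filter; dashed lines mark 1.5-fold, the grey line the median of all genes passing and the grey band their 5th to 95th percentile. Most points lie inside the band and near the grey line, with MDM4 at 0.75 and PMAIP1 at 0.64 on the right of the first panel and EDA2R at 0.66 and GADD45A at -0.60 at the edges of the third.

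The spread over the 3 arrays was read as well. The distance between a gene's highest and lowest array had a median of 0.24 for the 25 genes and 0.30 for all genes passing. It reached 1.5-fold in 4 of the 25 (16%), MDM4, PMAIP1, EDA2R and GADD45A, where 13.6% of all genes did. The highest array was that of wild-type TRAF7 for 12 genes, TRAF7 G536S for 9 and empty vector for 4, which is 48%, 36% and 16%, against 36.1%, 40.0% and 23.9% of all genes. The lowest array was that of wild-type TRAF7 for 10 genes (40%), TRAF7 G536S for 7 (28%) and empty vector for 8 (32%), against 24.9%, 24.7% and 50.4% of all genes, and the difference between these shares was not tested.

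Among the 4 genes that restrain p53, MDM4 had the highest difference from the empty vector of all 25 genes, with either construct. MDM4, which binds p53 and masks its activation domain, read 5.94 in wild-type TRAF7 cells and 5.83 in TRAF7 G536S cells, against 5.19 in empty vector cells. Both construct arrays were above the empty vector array, by 0.75 (1.68-fold) and 0.64 (1.56-fold), and lay close to each other, with a difference of -0.11 for TRAF7 G536S minus wild-type TRAF7. Among all genes passing, these differences were at the percentiles 97.5, 95.4 and 30.0. After quantile normalization or cyclic loess the TRAF7 G536S difference was 0.48 or 0.50, below 1.5-fold, while the wild-type difference stayed above it at 0.65 or 0.64.

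MDM2, the ligase that marks p53 for degradation and is itself a p53 target, read 4.84 in wild-type TRAF7 cells and 5.29 in TRAF7 G536S cells, against 4.95 in empty vector cells. Its TRAF7 G536S array was thus the highest, by 0.34 over the empty vector and by 0.45 (1.37-fold) over wild-type TRAF7, the second of these at the percentile 95.2 of all genes and short of 1.5-fold. PPM1D, the phosphatase that reverses p53 phosphorylation, read 4.10 and 3.92 in wild-type and TRAF7 G536S cells, against 3.85 in empty vector cells, differences of 0.25 and 0.07. CCNG1, an atypical cyclin that recruits a phosphatase to MDM2, read 4.47 and 4.62 against 4.50, within 0.15 over the 3 arrays. MDM4 and MDM2 therefore did not share an order across the arrays.

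**Figure D2:**
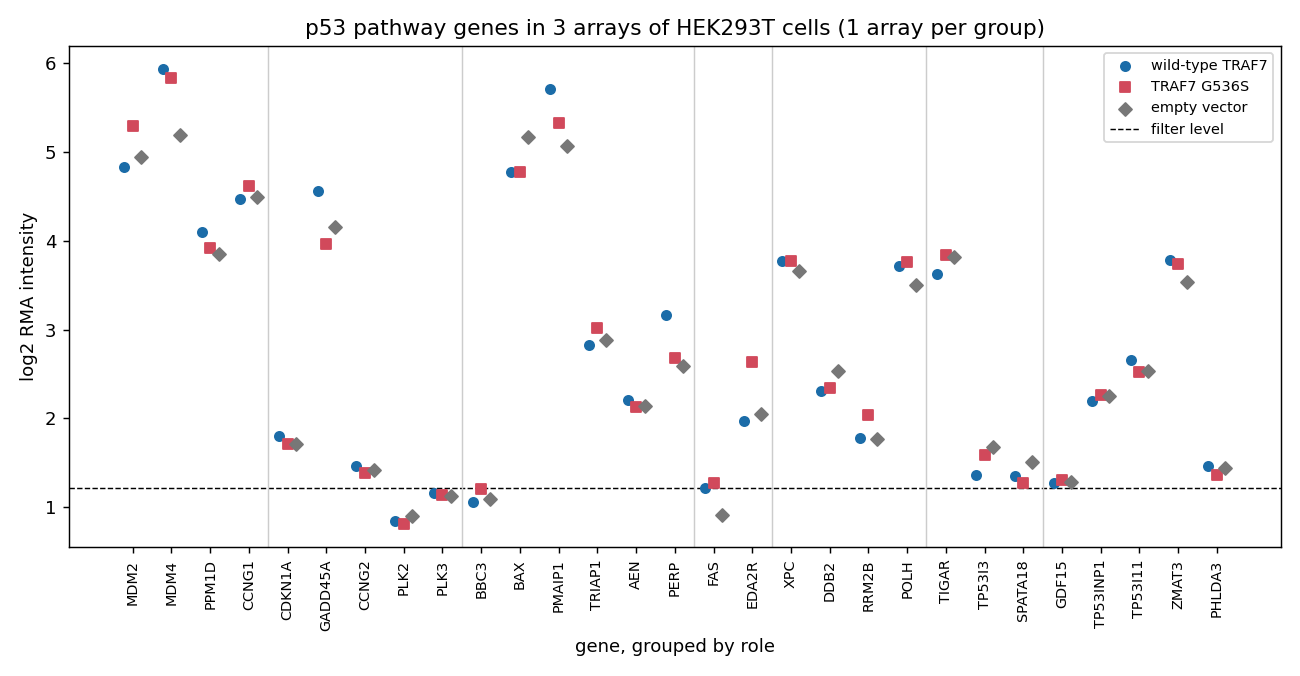
Log2 RMA intensity of each of the 29 measured p53 pathway genes (x axis, grouped by role, grey lines between roles) in the wild-type TRAF7, TRAF7 G536S and empty vector arrays, 1 point per array; the dashed line is the filter level of 1.21. The 3 points of most genes lie close together, CDKN1A between 1.71 and 1.80, while for MDM4 the empty vector point lies apart and for EDA2R the TRAF7 G536S point does; heights of different genes come from different probe sets and are not comparable.

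The cell-cycle genes included the target most often used as a p53 readout. CDKN1A, which encodes the cyclin-dependent kinase inhibitor p21, read 1.80 in wild-type TRAF7 cells and 1.71 in TRAF7 G536S cells, against 1.71 in empty vector cells. The 3 values lay within 0.09, and the differences of 0.08 and -0.0046 were close to the median gene in the first comparison, at the percentile 49.8, and below it in the second, at 35.4. The CDKN1A mean of 1.74 was low, 0.53 above the filter level, so its differences may be compressed. CCNG2, a cyclin associated with growth arrest, read 1.46 and 1.38 against 1.42, close to the filter level, where differences are compressed. PLK2 and PLK3, stress-responsive polo-like kinases, stayed below the filter, with 0.81 to 0.90 and 1.12 to 1.16 over the 3 arrays.

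GADD45A, a growth arrest and DNA damage protein that also responds to p53-independent stress, read 4.57 in wild-type TRAF7 cells and 3.97 in TRAF7 G536S cells, against 4.16 in empty vector cells. The wild-type array was 0.41 above the empty vector and the TRAF7 G536S array 0.19 below it (a difference of -0.19). Between the constructs the difference was -0.60, which is 1.51-fold lower with TRAF7 G536S, at the percentile 1.74 of all genes. That value lies just past the 1.5-fold level of 0.585, and it ranged from -0.62 to -0.59 over the 7 alternative settings.

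Of 6 further genes with a role in apoptosis or cell survival, 5 passed the filter, and they did not go one way. PMAIP1, which encodes the BH3-only protein NOXA, read 5.71 in wild-type TRAF7 cells and 5.33 in TRAF7 G536S cells, against 5.07 in empty vector cells. Wild-type TRAF7 was the highest array, by 0.64 (1.56-fold) over the empty vector, at the percentile 95.9, and TRAF7 G536S lay between the other two, at 0.27 over the empty vector. Quantile normalization put the wild-type difference at 0.54 and cyclic loess at 0.53, both below 1.5-fold.

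BAX, the pore-forming protein of the outer mitochondrial membrane, went the other way in both constructs. It read 4.77 in wild-type TRAF7 cells and 4.77 in TRAF7 G536S cells, against 5.17 in empty vector cells. The construct arrays were equal to within 0.01 and both 0.40 below the empty vector, at the percentiles 4.84 and 5.55 of all genes. BAX was the lowest of the 25 genes in both comparisons, at 1.32-fold lower in each, against the same empty vector array, and did not reach 1.5-fold. Quantile normalization put the differences at -0.53 and -0.54, and cyclic loess at -0.52 and -0.53, still short of 1.5-fold. Median centring put them at -0.38 and -0.37.

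PERP, a desmosomal membrane protein and apoptosis effector, read 3.16 in wild-type TRAF7 cells and 2.68 in TRAF7 G536S cells, against 2.59 in empty vector cells. Wild-type TRAF7 alone was high, by 0.57 over the empty vector, just under 1.5-fold. Median centring put this difference at 0.60, just over 1.5-fold, whereas quantile normalization and cyclic loess put it at 0.42 and 0.46. The difference of TRAF7 G536S minus wild-type TRAF7 was -0.48, at the percentile 3.52. PMAIP1, PERP and GADD45A thus had their highest value in the wild-type TRAF7 array, and their 3 differences of TRAF7 G536S minus wild-type TRAF7, -0.37, -0.48 and -0.60, were the lowest of the 25 genes. AEN, a nuclease that acts in apoptosis and carries a p53 half-site before its start, read 2.21 and 2.13 against 2.14. TRIAP1, a small p53-induced survival protein of mitochondria, read 2.82 and 3.02 against 2.88. BBC3, which encodes the BH3-only protein PUMA, stayed below the filter in mean, with 1.06 and 1.20 against 1.09.

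Of the listed genes of the TNF receptor family, EDA2R alone passed the filter. EDA2R, a TNF receptor family member that binds ectodysplasin A2, read 1.97 in wild-type TRAF7 cells and 2.64 in TRAF7 G536S cells, against 2.05 in empty vector cells. The TRAF7 G536S array stood above both others, by 0.66 (1.58-fold) over wild-type TRAF7, at the percentile 98.5, and by 0.584 over the empty vector, immediately below the 1.5-fold level of 0.585. Quantile normalization and cyclic loess put this difference from the empty vector at 0.43 and 0.47, and median centring at 0.62. Wild-type TRAF7 and empty vector differed by -0.08. FAS, the receptor of the FAS ligand, read 1.21 and 1.27 against 0.91, near background in all 3 arrays.

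None of the 4 DNA repair and nucleotide supply genes was 1.5-fold apart in any comparison. XPC, which recognises bulky lesions, read 3.78 and 3.78 in wild-type and TRAF7 G536S cells, against 3.67 in empty vector cells, and POLH, a polymerase that copies past ultraviolet damage, read 3.71 and 3.77 against 3.50. RRM2B, the p53-inducible ribonucleotide reductase subunit, read 1.78 and 2.04 against 1.77, and was highest with TRAF7 G536S, by 0.27 over the empty vector. DDB2, the ultraviolet damage sensor whose start carries the pair of p53 half-sites, read 2.30 and 2.34 against 2.53. The empty vector was its highest array, with differences of -0.23 and -0.19.

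The metabolic and mitochondrial genes had their highest or near-highest value in the empty vector array. TP53I3, an oxidoreductase linked to oxidative stress, read 1.36 in wild-type TRAF7 cells and 1.59 in TRAF7 G536S cells, against 1.67 in empty vector cells, and its wild-type difference of -0.31 was at the percentile 7.73. SPATA18, a regulator of mitochondrial quality, read 1.35 and 1.27 against 1.51. TP53I3 and SPATA18 had means of 1.54 and 1.38, close to the filter level, where differences are compressed. TIGAR, a fructose bisphosphatase that slows glycolysis, read 3.62 and 3.85 against 3.82. All 3 genes were below the empty vector with wild-type TRAF7, from -0.31 to -0.15, and none was 1.5-fold apart.

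None of the 5 other targets was 1.5-fold apart either. ZMAT3, an RNA-binding zinc finger protein, had the largest difference of the 5, with 3.78 and 3.73 against 3.53, or 0.25 and 0.20. GDF15, a secreted stress cytokine, read 1.27 and 1.31 against 1.29, all close to the filter level. TP53INP1, an autophagy and stress protein, read 2.19 and 2.26 against 2.26. TP53I11 read 2.66 and 2.52 against 2.53. PHLDA3, an inhibitor of AKT, read 1.46 and 1.37 against 1.44, close to the filter level as well.

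The values of the motif carriers that passed the filter can be set beside their sequences. DDB2 and AEN, the 2 carriers of a p53 half-site that passed the filter, differed from the empty vector by -0.23 and 0.07 with wild-type TRAF7. With TRAF7 G536S, DDB2 and AEN differed from it by -0.19 and -0.02. MDM2 and PERP, which carry an AP-1 site and passed the filter, differed by -0.11 and 0.57 with wild-type TRAF7 and by 0.34 and 0.09 with TRAF7 G536S. EDA2R, also an AP-1 carrier, differed by -0.08 and 0.584, and by 0.66 between the constructs. PPM1D, the 1 gene with a cAMP response element, differed by 0.25 and 0.07.

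The chromosome neighbours of the 4 genes that reached 1.5-fold were read next, as the 10 nearest genes passing the filter in the order of the GRCh38.p14 annotation, 5 on each side. This was chosen after the values of the 4 genes were seen. Because the 4 were picked for large differences, standing outside their neighbours follows in part from that choice. MDM4, on chromosome 1, was higher than all 10 neighbours with wild-type TRAF7, which had a median of 0.21 and a highest value of 0.34, and higher than all 10 with TRAF7 G536S, where they had a median of 0.14 and a highest value of 0.49. PMAIP1, on chromosome 18, was higher than all 10 with wild-type TRAF7, where their median was 0.19 and their highest value 0.39. With TRAF7 G536S, 3 of its neighbours were above PMAIP1 at 0.27, the highest at 0.61.

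GADD45A, also on chromosome 1, lay among genes whose median was higher with both constructs, though JAK1, 1 of them, was lower with both (-0.24 and -0.09). Its 10 neighbours had a median of 0.53 with wild-type TRAF7 and 0.48 with TRAF7 G536S, against medians of 0.08 and 0.10 for all genes. With wild-type TRAF7, 5 of the 10 neighbours were above GADD45A at 0.41, and with TRAF7 G536S all 10 were above GADD45A at -0.19. Between the constructs the neighbours had a median of 0.01, and GADD45A at -0.60 was below all 10, the nearest of them at -0.59. EDA2R, on chromosome X, was above all 10 neighbours between the constructs, where their median was -0.22 and their highest value 0.47. With TRAF7 G536S against the empty vector, 1 neighbour, PJA1 at 0.92, was above EDA2R at 0.584.

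**Figure D3:**
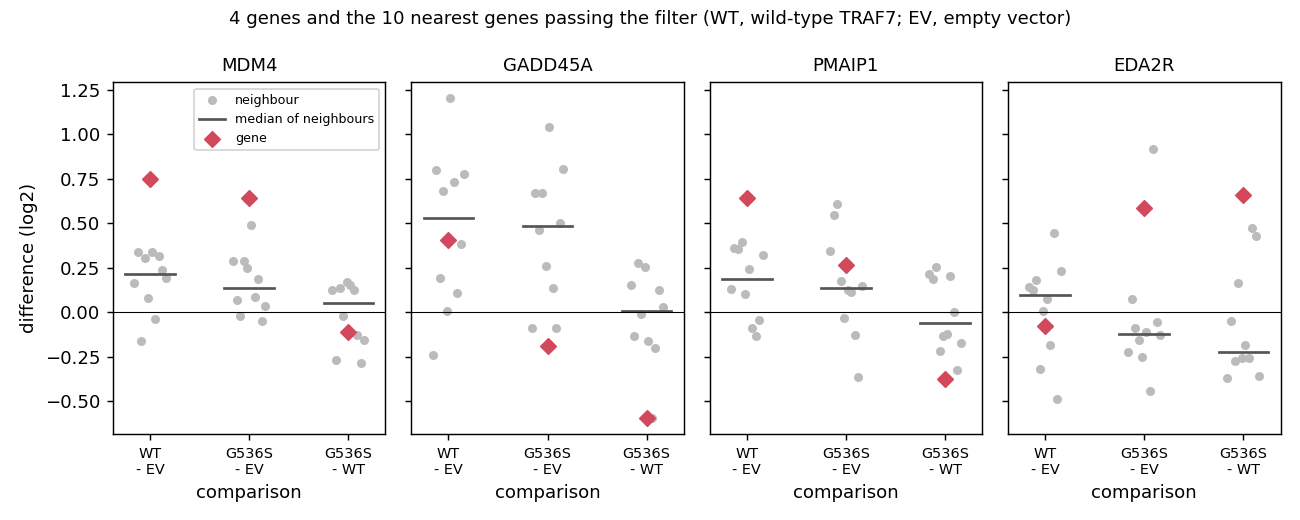
Log2 differences of MDM4, GADD45A, PMAIP1 and EDA2R (red diamonds) and of the 10 nearest genes passing the filter (grey points, with a bar at their median) in the 3 comparisons. MDM4 lies above all of its neighbours in both comparisons with the empty vector, whereas the neighbours of GADD45A have medians of 0.53 and 0.48 there.

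The rest of the pathway was read from 2 further lists. Of 22 core and upstream genes, 19 were measured and passed the filter, and none was 1.5-fold apart in any comparison. The other 3 were not analysed here. The medians of the 19 were 0.02 with wild-type TRAF7, 0.04 with TRAF7 G536S and 0.08 between the constructs, where all genes had 0.08, 0.10 and 0.0069. Above 0 were 10, 11 and 16 of the 19, which is 52.6%, 57.9% and 84.2%, against 62.6%, 63.9% and 51.4% of all genes. Of 30 further p53 targets, 29 were measured and 20 passed the filter, with medians of 0.11, 0.15 and 0.03. At least 1.5-fold higher were 2 with wild-type TRAF7, FBXO22 and BLOC1S2, 1 with TRAF7 G536S, BLOC1S2, and 0 between the constructs, and none was lower. The shares of 10% and 5% of the 20 stand near the 5.42% and 6.07% of all genes.

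BLOC1S2, a subunit of a complex that forms lysosome-related organelles, read 3.01 in wild-type TRAF7 cells and 2.87 in TRAF7 G536S cells, against 2.11 in empty vector cells, differences of 0.90 and 0.77. FBXO22, an F-box protein of a ubiquitin ligase, read 6.09 and 5.71 against 5.40, differences of 0.69 and 0.31.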

How the data were processed

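RNA of 3 HEK293T cultures was measured on 1 Affymetrix array each. The authors deposited 1 log2 intensity per probe set and array, made with RMA, per the submitters' processing notes. No RMA version, genome build or log base is stated there, and base 2 was inferred: the highest value, 12.57, exceeds the natural log of the top of a 16-bit scanner (11.09). Of 53617 probe sets, 23871 name 1 gene, 1842 name several and 27904 are unnamed here. Symbols were updated through Entrez IDs in a RefSeq table of GRCh38.p14. A gene took its probe set with the highest mean. Differences are single arrays subtracted. The genes, lists and threshold were chosen with earlier results of these data known. Every measured member is named; of the context lists, genes at least 1.5-fold apart are. The subtraction and counting were tested on simulated data. Alternatives were the mean of probe sets, no filter, a stricter filter (75th percentile, 2.87), cyclic loess, quantile normalization, median centring and a floor at the 25th percentile (0.86), with limma 3.58.1 in R 4.3.3 and numpy 2.4.6 and pandas 2.3.3 in Python 3.11.15. Figures used matplotlib 3.10.9. The number of arrays limits the precision.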

Additional observations from a re-analysis of the deposited data

Results flagged for a closer look

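GADD45A and EDA2R lay on opposite sides of the empty vector in the constructs and were at least 1.5-fold apart between them. For TRAF7 G536S minus wild-type TRAF7, GADD45A had a difference of -0.60 and EDA2R one of 0.66. With 1 array per group these differences were not tested.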

How the results depend on the processing

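No replicate spread exists, so these settings show scaling and filtering alone. Quantile normalization moved the median of all genes passing by -0.10 for wild-type TRAF7 and -0.12 for TRAF7 G536S against the empty vector. Of all genes 1.5-fold apart, 75.1% and 74.5% were higher in those comparisons, 47.7% and 41.5% after quantile normalization and 51.3% and 46.8% after cyclic loess. With quantile normalization the count of p53 pathway genes at least 1.5-fold higher became 1 with wild-type TRAF7 and 0 with TRAF7 G536S, and their medians reversed to -0.044 and -0.077. Cyclic loess gave counts of 1 and 0 and medians of -0.034 and -0.058. Median centring gave 3 genes with wild-type TRAF7, PERP being added, 2 with TRAF7 G536S, MDM4 and EDA2R, and a median of 0.0031 between the constructs. The filter at the 75th percentile, which kept 12 of the genes, gave 0 higher between the constructs. The cause of these moves was not tested beyond the shift of the median of all genes and the fewer genes kept. The 3 scalings moved the 225 values of single genes by less than the robust spread of all genes, which was 0.23 to 0.28. Small differences could still change sign within that spread. With quantile normalization, CDKN1A went from 0.08 to -0.03 with wild-type TRAF7, and PERP from 0.09 to -0.06 with TRAF7 G536S, each against the empty vector. The other 4 settings cannot move a gene with 1 probe set above the floor. No paired analysis was possible because each group has 1 array.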
